A study of Mus musculus with 12 samples.

Results

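The genes described here are the 133 whose row in the deposited annotation lists the KEGG map Lysosome, out of 56980 genes in the table. They were measured by bulk RNA sequencing in the livers of 12 male mice of the ob/ob strain B6.Cg-Lepob/J (Lep-/-), which lack leptin throughout the body and become obese. From 8 weeks of age the mice ate chow that drew 25% (standard protein diet, SPD) or 5% (low protein diet, LPD) of its energy from protein. They fed freely for 3 weeks, and livers were taken at 11 weeks, from 6 separate mice per diet. All mice of both groups carried the leptin mutation, and no liver with intact leptin was analysed here. LPD replicate 1 is labelled LPD by its title and library code, while its treatment and description labels name the 25% diet. It was kept in LPD, and the fit was repeated without it and with it counted as SPD.

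Lysosomes are acidic organelles that break down proteins, glycans, nucleic acids and lipids delivered by endocytosis and autophagy. Most of their soluble enzymes are tagged in the Golgi with mannose 6-phosphate, carried by receptors in clathrin-coated vesicles, and matured at the low pH that a proton pump, the V-ATPase, maintains. In hepatocytes the pathway supplies amino acids and clears lipid droplets and glycogen, and Kupffer cells, the macrophages of the liver, are rich in lysosomes. TFEB and TFE3, transcription factors of the MiT family, bind the CLEAR element, a DNA motif built on CACGTG, in promoters of many lysosomal genes.

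Total counts were 19374676 to 23710930 per library in SPD and 19404340 to 23681408 in LPD. Hepatocyte markers were abundant in every liver: albumin mRNA (Alb) stood between 47803 and 71208 CPM (counts scaled to a common library total). Among LPD livers, replicates 2 and 5 differed from the rest, for example in summed macrophage markers, at 883 and 818 CPM against 1154 to 1285 CPM. Library codes (SP1 and SP2 for SPD, LP4 and LP5 for LPD) were never shared between diets, so any difference that goes with the code cannot be told apart from diet.

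Lysosomal mRNA was lower on the low protein diet for many members and higher for few. Of the 133 genes, 119 had enough counts to test and 14 had not, 3 of which had no count in any liver. At an adjusted p under 0.05 (edgeR, Benjamini-Hochberg over all tested genes), 47 of the 119 fell in LPD, which is 39.5%, against 19.2% of all 13768 genes tested. By the same test 12 rose, which is 10.1%, against 20.7% of all genes tested, and 60 were not called. For 31 members (26.1%) all 6 LPD livers lay below all 6 SPD livers, against 9.73% of all genes. The reverse held for 4 members (3.36%), against 10.2% of all genes, and these were Hyal1, Ctsl, Cd164 and Gnptg. The median log2 fold change, LPD over SPD, was -0.14 over the 119 members and -0.00059 over all genes. Estimates were below 0 for 88 of the 119.

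The excess of lower members was seen among well-expressed genes. Among the 102 members with a mean of at least 10 CPM, 43.1% were lower and 9.80% higher, where 1555 of all 7765 genes at that level were lower and 2254, or 29.0%, higher. Of the 17 tested members under 10 CPM, 3 were lower (17.6%) and 2 higher (11.8%), near the 18.2% and 9.93% of all genes at that level. The 45 genes that the annotation places in the Lysosome map alone (41 tested) held 14 lower and 5 higher members with a median of -0.12. The 88 genes that other KEGG maps also list (78 tested) held 33 lower and 7 higher, with a median of -0.15. Both portions had more lower than higher members. By share, 34.1% of the tested genes of the first portion were lower and 12.2% higher, and 42.3% and 8.97% of the second. Of all genes tested, 19.2% were lower and 20.7% higher.

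Summed over all members, lysosomal mRNA came to 13389 ± 234 CPM in SPD (mean ± SD, n = 6) and 11930 ± 309 CPM in LPD, a ratio of 0.891. SPD livers ranged from 13127 to 13724 and LPD livers from 11598 to 12341, with no overlap. Without LPD replicates 2 and 5 the ratio was 0.900. The summed CPM of all genes tested had a ratio of 0.967, or 0.937 without those 2 livers. Those all-gene sums overlapped between the diets, at 978741 to 1048983 CPM in SPD and 939303 to 1058719 CPM in LPD. In whole liver, fewer cells of a type and less RNA per cell cannot be told apart.

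**Figure D1:**
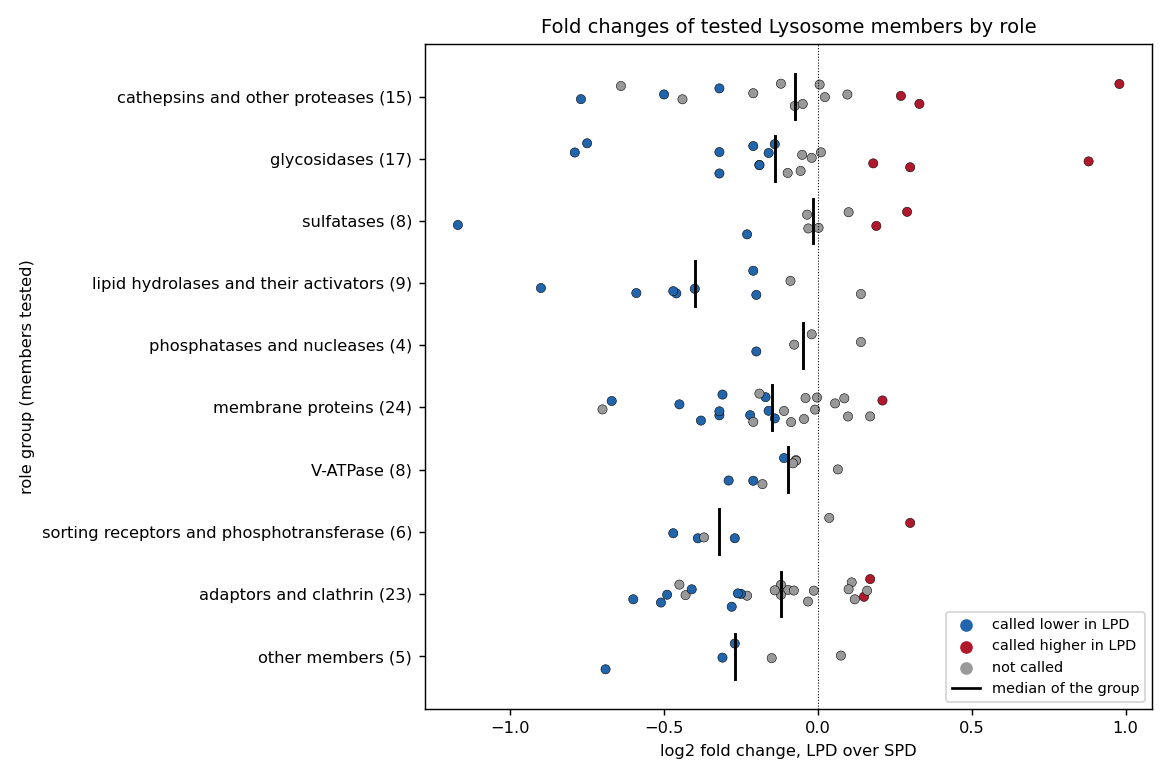
Log2 fold change (LPD over SPD, horizontal axis) for each tested member, one point per gene, in rows by role. Colour marks members called higher, called lower or not called, and a black bar marks the median of each role. Most called points lie left of 0, and the lipid hydrolases and their activators hold 7 lower and no higher member.

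A few mRNAs made up much of the lysosomal transcript pool. Levels of different genes were compared per kb of the deposited gene length. Lamp1 was highest in SPD at 539 ± 27.1 CPM per kb, followed by Ctsd at 464 ± 26.4 and Psap at 391 ± 10.7. Lamp2 came next at 273 ± 16.3 CPM per kb. Ctsz and Ctsb then followed at 212 ± 12.3 and 209 ± 9.89 CPM per kb, and these neighbours did not differ beyond their spread. The 10 highest members held 50.9% of the summed per-length level of the 133. This order and share rest on the deposited lengths, which can differ from the annotated exons. Litaf, at rank 8, has a deposited length of 763 bases and 5156 annotated exon bases. In LPD the order changed: Ctsd went from rank 2 to rank 4, at 251 to 294 CPM per kb, where Lamp2 stood at 253 to 318. Ctsl moved from rank 9 (143 ± 7.75 CPM per kb) to rank 6 (179 ± 4.20), above Ctsb at 167 ± 7.73.

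**Figure D2:**
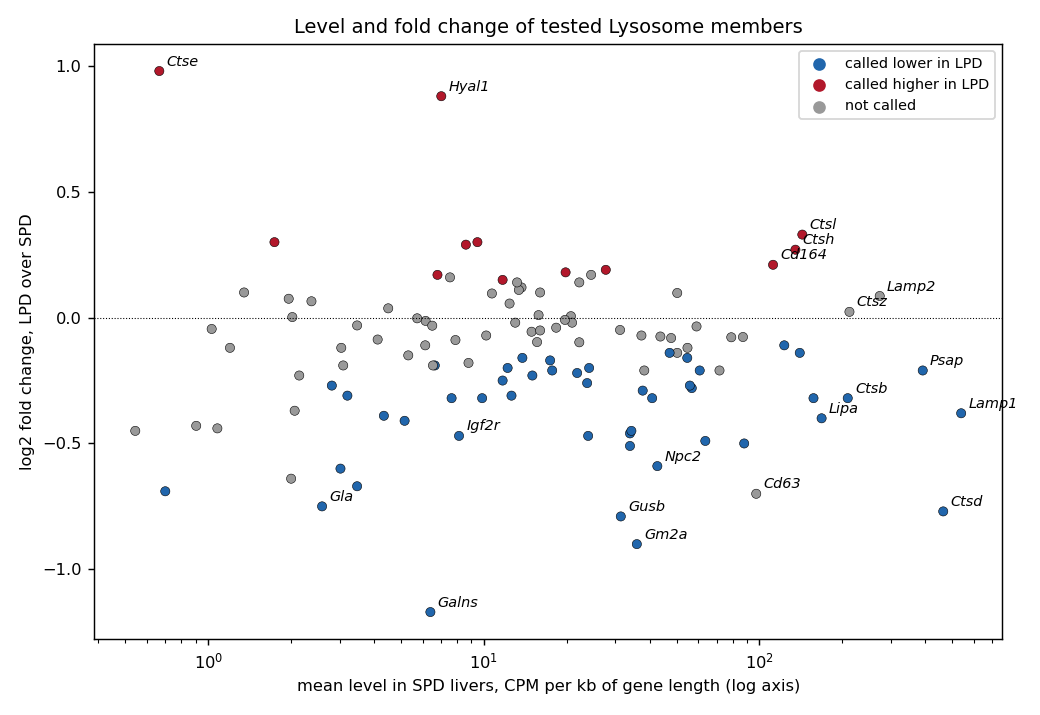
Log2 fold change (LPD over SPD, vertical axis) against the mean level in SPD (CPM per kb of gene length, logarithmic horizontal axis) for the tested members, coloured by call. Lamp1, Ctsd and Psap, the 3 most abundant members in SPD, all lie below 0.

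Promoter sequence was examined for the CACGTG core, since it is the letters shared by CLEAR elements. RefSeq windows on GRCm38.p6, from 250 bases before to 50 after each annotated start, were found for 104 of the 133 members. Both strands were searched for CACGTG, which reads the same on either, and for the longer GTCACGTG, which contains it. CACGTG occurred in 23 of the 104 members (22.1%) and GTCACGTG in 19 (18.3%). A gene was counted if any of its windows matched. Among all 27025 gene symbols with a window the shares were 8.09% and 2.55%. Among the 10397 tested genes with a window they were 11.7% and 4.69%. GTCACGTG lay in 9 of 39 members that fell (23.1%), in 3 of 10 that rose and in 7 of 43 not called (16.3%). Members with the motif were thus found among lower, higher and uncalled genes, and these shares are a description without a test.

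These windows are printed 5′ to 3′ on the strand of the gene, with GTCACGTG or its reverse complement CACGTGAC in capitals, to show the motif both in members that fell and in members that rose. Igf2r holds further matches that are not shown. Atp6v0b, Gga2, Glb1, Lgmn and Mcoln1 also fell and hold the longer motif, and their windows are not printed. The members that fell and are printed are Ctsd, with 2 matches (chr7:142387888-142387955 and chr7:142388035-142388077, minus strand), Lamp1 (chr8:13159103-13159160, plus strand), Gla (chrX:134601164-134601231, minus strand) and Igf2r (chr17:12769719-12769786, minus strand).
Ctsd, first base of the motif at -98 from the start: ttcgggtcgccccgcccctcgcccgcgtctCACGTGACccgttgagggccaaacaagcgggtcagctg
Ctsd, at -245: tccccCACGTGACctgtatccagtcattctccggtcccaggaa
Lamp1, at -28: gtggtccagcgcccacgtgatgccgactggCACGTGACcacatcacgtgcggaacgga
Gla, at -196: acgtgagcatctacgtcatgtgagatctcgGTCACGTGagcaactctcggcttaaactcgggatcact
Igf2r, at -50: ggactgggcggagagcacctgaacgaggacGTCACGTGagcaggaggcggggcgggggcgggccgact

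The members that rose and hold the longer motif are Cd164 (chr10:41519383-41519450, plus strand), Arsa (chr15:89477425-89477472, minus strand) and Gnptg (chr17:25240119-25240148, minus strand).
Cd164, at -87: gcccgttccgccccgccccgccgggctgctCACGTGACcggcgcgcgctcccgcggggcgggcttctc
Arsa, at -18: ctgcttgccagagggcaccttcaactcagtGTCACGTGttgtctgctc
Gnptg, at 4: cggctgtcactCACGTGACcgtgagaccct
The same 8 letters therefore stand in promoters of Ctsd and Lamp1, which fell, and of Cd164 and Gnptg, which rose. A match is a run of letters and not a measured binding site.

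The lysosomal lipid hydrolases and their activator proteins had the highest share of lower members of any role. Of 10 members, 9 were tested: 7 fell (77.8%, against 19.2% of all genes tested), none rose, and all 7 were separated between the diets. Their median log2 fold change was -0.40. Summed, they came to 2084 ± 63.4 CPM in SPD (2000 to 2170) and 1666 ± 78.0 CPM in LPD (1571 to 1772), a ratio of 0.799, or 0.817 without LPD replicates 2 and 5.

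Gm2a encodes the GM2 activator, which lifts gangliosides out of membranes for beta-hexosaminidase. The gene lies on the plus strand of chromosome 11, from 55098115 to 55113029 of GRCm38. SPD livers had 136 CPM at lowest, 145 at the median and 160 at highest, and LPD livers had 74.2, 76.7 and 88.8 CPM. Every LPD liver was thus below the lowest SPD liver, and the log2 fold change was -0.90 ± 0.062 (SE; adjusted p = 8.98e-08), a 1.87-fold lower level. Npc2, the soluble protein that hands cholesterol to the membrane protein NPC1, stood at 127, 142 and 151 CPM in SPD (lowest, median, highest). In LPD these were 85.3, 93.6 and 102 CPM, again without overlap (-0.59 ± 0.06, adjusted p = 3.37e-06). Lipa, lysosomal acid lipase, hydrolyses cholesteryl esters and triglycerides. Its lowest, median and highest levels were 454, 500 and 539 CPM in SPD against 361, 374 and 406 CPM in LPD (-0.40 ± 0.059, adjusted p = 8e-05). Mean CPM of Lipa thus fell by 24.4%, with no overlap between the diets.

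Ppt1, a palmitoyl-protein thioesterase, ran from 52.6 to 63.1 CPM in SPD and from 39.3 to 44.9 CPM in LPD (-0.47 ± 0.056, adjusted p = 1.41e-05). Asah1, acid ceramidase, ran from 88.2 to 102 CPM and from 56.4 to 77.3 CPM (-0.46 ± 0.081, adjusted p = 0.000389). It was named after its values were seen, as were Ppt2, Smpd1 and Pla2g15. Psap encodes the precursor of the saposins, small activators of sphingolipid hydrolases. With 986, 1040 and 1073 CPM in SPD (lowest, median, highest) and 840, 889 and 956 CPM in LPD, it was the most abundant mRNA of this role and changed by less (-0.21 ± 0.053, adjusted p = 0.00570). Ppt2 was lower by a similar amount (-0.20 ± 0.056, adjusted p = 0.00923), a call lost when LPD replicate 1 was counted as SPD (adjusted p = 0.0859). Smpd1, acid sphingomyelinase, had the one positive estimate of the 9, 0.14 ± 0.057 with an adjusted p of 0.0597. Without LPD replicate 6 the role held 1 higher member, where 19.8% of all genes tested were higher. Pla2g15, lysosomal phospholipase, was not called (-0.089, adjusted p = 0.269).

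**Figure D3:**
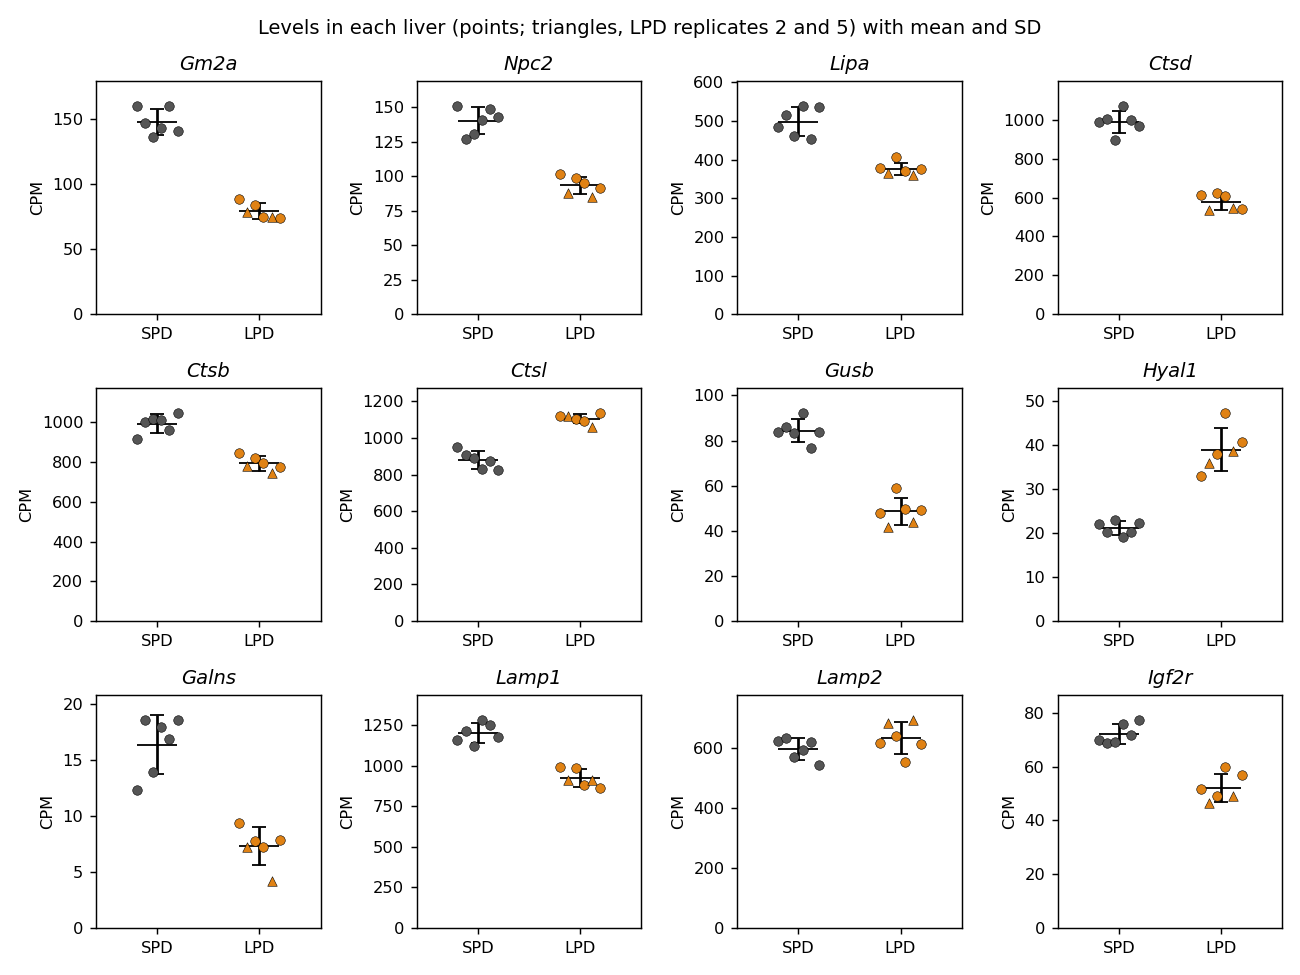
CPM in each liver for 12 members, with the mean and SD per diet; each panel has its own axis from 0, and triangles mark LPD replicates 2 and 5. Panels such as Gm2a, Ctsd and Gusb show all LPD livers below all SPD livers, Ctsl and Hyal1 the reverse, and Lamp2 overlaps.

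Of 19 cathepsins and other proteases, 15 were tested, 3 fell and 3 rose, and the median was -0.075. Both shares are near those of all genes tested (19.2% lower, 20.7% higher), so the counts do not set this role apart. The summed level was 4161 ± 88.7 CPM in SPD and 3742 ± 124 CPM in LPD. Ctsd, the aspartic protease cathepsin D, lies on the minus strand of chromosome 7 from 142375911 to 142388038 (GRCm38). It stood at 897, 993 and 1070 CPM in SPD (lowest, median, highest) and at 534, 576 and 625 CPM in LPD. The ranges were far apart, and the log2 fold change was -0.77 ± 0.062 (adjusted p = 3.7e-07), or 1.71-fold lower. Ctsd is the member whose promoter was printed with 2 matches to GTCACGTG. Igf2r and Mcoln1, which fell, and Ctsa and Cln3, which were not called, also hold more than a single match. Ctsd shares 34.4% of its exon bases with Gm49369 on the same strand, which was counted at only 1.83 CPM in SPD and 0.920 CPM in LPD. Ctsb, a cysteine protease, ran from 915 to 1048 CPM in SPD and from 743 to 846 CPM in LPD (-0.32 ± 0.055, adjusted p = 0.000283). Of its exon bases, 12.8% overlap Fdft1, squalene synthase, on the other strand, and Fdft1 fell from 219 to 106 CPM (-1.05, adjusted p = 5.95e-06). Whether counting used the strand is not given in the sources used here, so reads of the overlap cannot be told apart.

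Ctsl, the cysteine protease cathepsin L, moved the other way. It stood at 823, 882 and 949 CPM in SPD and at 1061, 1111 and 1137 CPM in LPD, again lowest, median and highest. All LPD livers were above all SPD livers (0.33 ± 0.053, adjusted p = 0.000194). Per kb of length, mean levels of Ctsl were below those of Ctsb in SPD and above them in LPD, as given earlier. Ctsh, an aminopeptidase, rose from 218 ± 12.0 to 263 ± 25.8 CPM (0.27 ± 0.067, adjusted p = 0.00470). Ctse, an aspartic protease of endosomes, was rare and rose from 1.41 ± 0.397 to 2.80 ± 0.733 CPM (0.98 ± 0.22, adjusted p = 0.00265). Legumain (Lgmn), an asparaginyl endopeptidase that processes other cathepsins, fell from 162 ± 22.6 to 114 ± 23.1 CPM (-0.50 ± 0.13, adjusted p = 0.00544). Without LPD replicates 2 and 5 its log2 fold change was -0.33 (adjusted p = 0.0138). Ctss, a cathepsin of antigen-presenting cells, overlapped widely, from 72.1 to 141 CPM in SPD and from 57.7 to 101 CPM in LPD (-0.21 ± 0.16, adjusted p = 0.331). Ctsz, abundant at 305 and 310 CPM, was not called (0.023, adjusted p = 0.782). Leaving out LPD replicate 6 raised the number of lower proteases from 3 to 5, where 17.9% of all genes tested were lower.

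Glycosidases remove sugars from glycoproteins, glycolipids and glycosaminoglycans. Of 17 tested members, 8 fell (47.1%, against 19.2% of all genes tested) and 3 rose (17.6%, against 20.7%), with a median of -0.14. The 8 became 5 without SPD replicate 6, without LPD replicates 2 and 5 together or with no filter on low counts. In these settings 17.4%, 15.8% and 10.2% of all genes tested were lower. With the SP1 and LP4 libraries alone 3 glycosidases were lower, where 12.2% of all genes tested were. Gusb, beta-glucuronidase, stood at 76.5, 83.9 and 92.3 CPM in SPD (lowest, median, highest) and 41.7, 48.5 and 59.2 CPM in LPD. The groups did not overlap, and the log2 fold change was -0.79 ± 0.075 (adjusted p = 1.65e-06). Fuca1, alpha-L-fucosidase, fell from 103 ± 2.68 to 82.7 ± 4.53 CPM (-0.32 ± 0.047, adjusted p = 9.45e-05). Gla, alpha-galactosidase A, fell from 7.82 ± 1.21 to 4.63 ± 1.30 CPM (-0.75 ± 0.17, adjusted p = 0.00238). Glb1, beta-galactosidase, fell from 18.3 ± 1.11 to 14.6 ± 1.85 CPM (-0.32 ± 0.08, adjusted p = 0.00484). The call was lost (adjusted p = 0.0854) when only SP1 and LP4 libraries were used. Smaller differences were called for Hexa, Neu1, Man2b1 and Manba, from -0.21 to -0.14, and each of these lost its call under at least 3 of the 22 alternatives.

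Hyal1, a hyaluronidase, was the member that rose with the smallest adjusted p. It stood at 19.1, 21.1 and 23.0 CPM in SPD and at 33.0, 38.3 and 47.3 CPM in LPD (lowest, median, highest). The groups were apart (0.88 ± 0.079, adjusted p = 9.73e-07), a 1.84-fold higher level. The annotation gives Hyal1 and Naa80, a neighbouring gene on the same strand, 50.8% of the exon bases of Hyal1 in common, and Naa80 was counted at 15.4 CPM in SPD and 21.8 CPM in LPD (0.50, adjusted p = 0.00117). How shared reads were split between these genes is not given in the sources used here, so the value of Hyal1 is uncertain. Gaa, acid alpha-glucosidase, which degrades glycogen in lysosomes, ran from 67.3 to 76.4 CPM in SPD and from 74.3 to 88.8 CPM in LPD (0.18 ± 0.055, adjusted p = 0.0150). That call was lost without LPD replicates 2 and 5 (adjusted p = 0.0786). Idua, alpha-L-iduronidase, was called higher at low counts (0.30 ± 0.10, adjusted p = 0.0322) and lost its call under 10 alternatives.

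The sulfatases were grouped with Sumf1, a sulfatase-modifying factor. Of these 8 genes 2 were lower (25.0%), 2 higher (25.0%) and 4 not called, near the shares of all genes tested (19.2% and 20.7%). Their summed levels were 486 to 515 CPM in SPD and 479 to 516 CPM in LPD. Galns, which desulfates keratan and chondroitin sulfate, had the largest fold change of all members called. It lay at 12.3, 17.4 and 18.6 CPM in SPD and at 4.21, 7.51 and 9.38 CPM in LPD (lowest, median, highest). The ranges were separate, and the log2 fold change was -1.17 ± 0.15 (adjusted p = 3.18e-05), 2.24-fold lower. Arsb, arylsulfatase B, fell (-0.23 ± 0.056, adjusted p = 0.00381), whereas Arsg and Arsa rose by 0.29 ± 0.078 and 0.19 ± 0.056 (adjusted p = 0.00885 and 0.0139). Arsa was not called (adjusted p = 0.174) once LPD replicate 1 was moved to SPD. Among 4 phosphatases and nucleases, Dnase2b, an acid endonuclease, fell (-0.20 ± 0.049, adjusted p = 0.00444) and the other 3 were not called, including the acid phosphatase Acp5 (-0.077, adjusted p = 0.296).

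Of 25 lysosomal membrane proteins 24 were tested, with a median of -0.15. Among the 24, 10 fell (41.7%, against 19.2% of all genes tested) and 1 rose (4.17%, against 20.7%). With the SP1 and LP4 libraries alone, 4 were lower and none higher, where 12.2% of all genes tested were lower and 13.2% higher. Lamp1 and Lamp2, the main glycoproteins lining the lysosomal membrane, gave different calls. Lamp1 (chromosome 8, 13159161 to 13175338, plus strand, GRCm38) stood at 1123, 1196 and 1285 CPM in SPD and 863, 914 and 995 CPM in LPD (lowest, median, highest). It fell without overlap (-0.38 ± 0.058, adjusted p = 0.000137). Grtp1 on the opposite strand shares 9.31% of its exon bases and was counted at 7.31 and 8.57 CPM. Lamp2 stood at 542, 607 and 633 CPM in SPD and 553, 629 and 695 CPM in LPD, overlapping (0.086 ± 0.065, adjusted p = 0.315). The difference between the fold changes of these genes was not tested. Abca2, a lipid transporter, ran from 24.3 to 32.1 CPM and from 14.1 to 20.9 CPM (-0.67 ± 0.085, adjusted p = 2.44e-05).

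Litaf, an endosomal membrane protein, fell (-0.32 ± 0.075, adjusted p = 0.00333). Entpd4b and Entpd4, nucleoside diphosphatases with near-identical sequence, had -0.32 ± 0.067 and -0.22 ± 0.067 (adjusted p = 0.00143 and 0.0147), and how reads were divided between this pair is uncertain. Entpd4 lost its call with the replicate block, with LPD replicate 1 moved to SPD and with SP1 and LP4 libraries alone, at a largest adjusted p of 0.123. Cd164, a sialomucin, was the one that rose, from 326 ± 9.06 to 377 ± 20.5 CPM with no overlap (0.21 ± 0.051, adjusted p = 0.00406). The adjusted p became 0.0648 when only SP1 and LP4 libraries were used. Npc1, the cholesterol exporter that receives cholesterol from NPC2, ran from 112 to 145 CPM in SPD and from 131 to 167 CPM in LPD (0.17 ± 0.074, adjusted p = 0.0749). It passed the threshold without SPD replicate 1 (adjusted p = 0.0349) or without LPD replicate 3 (adjusted p = 0.0428). Within this cholesterol export pair, Npc2 fell while Npc1 had a positive estimate that was not called.

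Some membrane proteins varied with LPD replicates 2 and 5, and the cells that their mRNA came from were not measured. Cd68, a macrophage sialomucin, had 30.8, 35.1 and 37.7 CPM in SPD and 19.3, 25.0 and 31.9 CPM in LPD (lowest, median, highest). Its log2 fold change was -0.45 ± 0.12 (adjusted p = 0.00703), -0.29 (adjusted p = 0.0255) without those 2 livers, and not called (adjusted p = 0.105) when only SP1 and LP4 libraries were used. Cd63, a tetraspanin chosen after its values were seen, ran from 82.5 to 129 CPM in SPD. In LPD replicates 1 to 6 it stood at 94.7, 29.8, 78.1, 89.8, 25.0 and 64.5 CPM, so replicates 2 and 5 were by far the lowest of the 12 livers. It was not called (-0.70 ± 0.27, adjusted p = 0.0524), and without them the estimate was -0.34 (adjusted p = 0.0686).

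The V-ATPase acidifies the lysosome through a membrane sector, V0, and a catalytic sector, V1. In the Lysosome map are 9 of its subunits and accessory proteins, of which 8 were tested, with a median of -0.098. Among the 8, 3 fell (37.5%, against 19.2% of all genes tested) and none rose (against 20.7%). None of the 3 calls held with the SP1 and LP4 libraries alone, where 12.2% of all genes tested were lower. The lower members were Atp6v0b (-0.21 ± 0.048, adjusted p = 0.00341), Atp6v1h (-0.29 ± 0.076, adjusted p = 0.00715) and Atp6v0c, which forms the proton-carrying ring (-0.11 ± 0.043, adjusted p = 0.0467). Atp6v0c lost its call under 16 of the 22 alternatives. Tcirg1, the a3 subunit, overlapped between diets at 19.1 to 28.1 and 17.6 to 26.3 CPM (-0.18 ± 0.11, adjusted p = 0.223). Atp6v0d2, a d subunit of macrophages and osteoclasts, stood between 5.03 and 6.74 CPM in SPD. LPD replicates 1 to 6 had 8.65, 3.67, 8.48, 7.93, 3.61 and 5.35 CPM. Replicates 2 and 5 were below and 3 other LPD livers above every SPD liver, with no call (0.065 ± 0.21, adjusted p = 0.833).

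Of 8 genes for the V1 sector, which the map does not list, 7 were tested, with a median of -0.22. Among these, 6 fell (85.7%, against 19.2% of all genes tested). Their summed level was 518 CPM in SPD and 443 CPM in LPD. Atp6v1a, the catalytic subunit, fell from 95.6 ± 4.58 to 74.4 ± 6.78 CPM (-0.36, adjusted p = 0.000315), and Atp6v1g1 from 56.4 ± 3.71 to 44.4 ± 4.56 CPM (-0.35, adjusted p = 0.00119). Atp6v1d was not called (-0.033, adjusted p = 0.615).

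Genes that deliver enzymes to lysosomes were examined next. Of 6 sorting receptors and phosphotransferase genes 3 fell (50.0%, against 19.2% of all genes tested) and 1 rose (16.7%, against 20.7%). The median was -0.32, with summed levels of 283 ± 13.4 CPM in SPD and 235 ± 9.86 CPM in LPD. Igf2r, the cation-independent mannose 6-phosphate receptor, stood at 68.9, 70.9 and 77.5 CPM in SPD and 46.5, 50.4 and 59.9 CPM in LPD (lowest, median, highest). It fell with no overlap (-0.47 ± 0.064, adjusted p = 4.78e-05). M6pr, the cation-dependent receptor, ran from 128 to 154 CPM and from 112 to 126 CPM (-0.27 ± 0.056, adjusted p = 0.00123). Both known mannose 6-phosphate receptors were therefore lower in every LPD liver than in any SPD liver. GlcNAc-1-phosphotransferase makes the mannose 6-phosphate tag, and its subunit genes moved apart. Gnptab, which encodes the catalytic subunits, fell (-0.39 ± 0.073, adjusted p = 0.000681), while Gnptg, the gamma subunit, rose (0.30 ± 0.057, adjusted p = 0.000690). Gnptg shares 49.5% of its exon bases with Unkl on the opposite strand, which was counted at 14.6 and 13.2 CPM. Sort1, sortilin, a sorting receptor that does not need the tag, was not called (-0.37 ± 0.19, adjusted p = 0.137). It ran from 10.4 to 16.2 CPM in SPD and from 6.22 to 14.3 CPM in LPD, and was -0.11 (adjusted p = 0.532) without LPD replicates 2 and 5, its lowest livers.

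Adaptor complexes and clathrin form the transport coats. Of 25 members 23 were tested, and the median was -0.12. Among the 23, 7 fell (30.4%, against 19.2% of all genes tested) and 2 rose (8.70%, against 20.7%). Ap3s1 and Ap1s1, small subunits of AP-3 and AP-1, fell by similar amounts. Ap3s1 ran from 46.7 to 58.3 CPM in SPD and from 33.6 to 41.7 CPM in LPD (-0.51 ± 0.065, adjusted p = 2.4e-05), and Ap1s1 from 44.1 to 51.4 CPM and from 31.7 to 39.9 CPM (-0.49 ± 0.062, adjusted p = 2.45e-05). Cltc, the clathrin heavy chain, fell from 350 ± 19.4 to 288 ± 8.43 CPM (-0.28 ± 0.051, adjusted p = 0.000481). The light chain gene Clta was not called (-0.078, adjusted p = 0.302). Ap1g2 fell at a low level (-0.60 ± 0.11, adjusted p = 0.000547). The 2 higher calls, Ap4b1 (0.17, adjusted p = 0.0352) and Ap1g1 (0.15, adjusted p = 0.0490), were lost under 14 and 16 of the 22 alternatives, upper quartile scaling included. Ap3m1 (-0.26, adjusted p = 0.00827), named after its values were seen, shares 29.8% of its exon bases with Vcl on the opposite strand, which fell by 0.56 on the log2 scale. Its call was lost when LPD replicate 1 was moved to SPD (adjusted p = 0.0820).

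The 10 members that the role lists do not name included 5 hyaluronidase-family genes that were not tested, Hyal3, Hyal4, Hyal5, Hyal6 and Spam1. Of the other 5, 3 fell (60.0%, against 19.2% of all genes tested). These were the fucosidase Fuca2 (-0.31 ± 0.067, adjusted p = 0.00179), the V-ATPase regulator Dmxl2 (-0.27, adjusted p = 0.00674) and Ncoa7 (-0.69 ± 0.19, adjusted p = 0.00897). None of the 3 calls held when LPD replicate 1 was counted as SPD, and 1 held with the SP1 and LP4 libraries alone. In those settings 15.9% and 12.2% of all genes tested were lower. Fuca2 and the 5 untested hyaluronidase-family genes are glycosidases by enzyme class, but the glycosidase counts above leave them out. Elsewhere the untested members were Atp6v0a4, Ap1m2, Ap3b2, Ctsw, Ctsg, Ctsj, Ctsm, Psapl1 and Lamp3.

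Regulators of lysosomal gene expression and signalling were examined as lists outside the map. Of the 4 MiT factors 1 rose (25.0%, against 20.7% of all genes tested) and none fell. Tfeb rose from 4.73 ± 0.645 to 6.12 ± 0.800 CPM (0.37, adjusted p = 0.0219). The livers overlapped, at 3.96 to 5.65 CPM in SPD and 4.74 to 7.22 CPM in LPD. Tfe3 (-0.024, adjusted p = 0.776), Mitf (0.20, adjusted p = 0.222) and Tfec (-0.15, adjusted p = 0.654) were not called. Ragulator and the Rag GTPases anchor the mTORC1 kinase at the lysosome when amino acids are plentiful. Of their list of 12 genes with folliculin and its partners, 11 were tested, 3 fell (27.3%, against 19.2% of all genes tested) and none rose. Rragd, encoding RagD, fell from 8.80 ± 2.36 to 4.41 ± 1.49 CPM without overlap (-0.99, adjusted p = 0.00240), and Rragc and Lamtor4 fell by 0.15 and 0.26 on the log2 scale.

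Cell type markers were counted by the same calls, where 19.2% of all genes tested were lower and 20.7% higher. Of 18 markers of Kupffer cells and macrophages, 7 fell (38.9%) and 1, Marco, rose (5.56%). The lower markers were Cd5l (-0.42, adjusted p = 0.0356), Lyz2 (-0.44, adjusted p = 0.0337), Folr2 (-0.49, adjusted p = 0.000597), Mmp12 (-0.87, adjusted p = 0.0402), Cd9 (-1.05, adjusted p = 4.46e-06), Spp1 (-1.95, adjusted p = 8.88e-05) and Fabp5 (-3.43, adjusted p = 1.48e-07). Summed, the 18 markers stood at 1414 to 1756 CPM in SPD and 818 to 1285 CPM in LPD. Without LPD replicates 2 and 5 the LPD range was 1154 to 1285 CPM. A few genes weigh heavily in these sums: mean Spp1 went from 246 to 63.3 CPM and Fabp5 from 79.9 to 7.38 CPM. Of the 18 markers, 10 were not called, so the sums do not count cells. None of the 18 was at 0 in any group. The defining Kupffer cell gene Clec4f was not called (0.020, adjusted p = 0.824), nor were Vsig4, Timd4, Adgre1 and Csf1r. Among stellate cell markers 5 of 9 fell and none rose, with sums of 584 to 786 CPM and 386 to 666 CPM. Of 8 sinusoidal endothelial markers 2 fell and 1 rose, with sums of 405 to 459 and 364 to 426 CPM. Hepatocyte markers gave 5 higher and 1 lower of 9, with sums of 82527 to 89405 and 77145 to 105348 CPM, highest in LPD replicates 2 and 5. Alb made up most of that sum, with a mean of 65535 of 85824 CPM in SPD and 57232 of 87422 CPM in LPD. Of 5 tested cholangiocyte markers 1 fell, Spp1, which the macrophage list also holds. Of 4 tested neutrophil markers 1 fell (sums of 5.17 to 13.6 and 2.75 to 6.85 CPM), and so did 1 of 3 tested T and B cell markers (7.55 to 29.3 and 5.21 to 8.24 CPM). The part of these markers in the lysosomal differences was not tested. Without LPD replicates 2 and 5, the livers with the lowest macrophage sums, 43 of 120 tested members were lower (35.8%) and 9 higher. The median of the members was -0.10. In that setting 15.8% of all genes tested were lower and 16.7% higher.

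**Figure D4:**
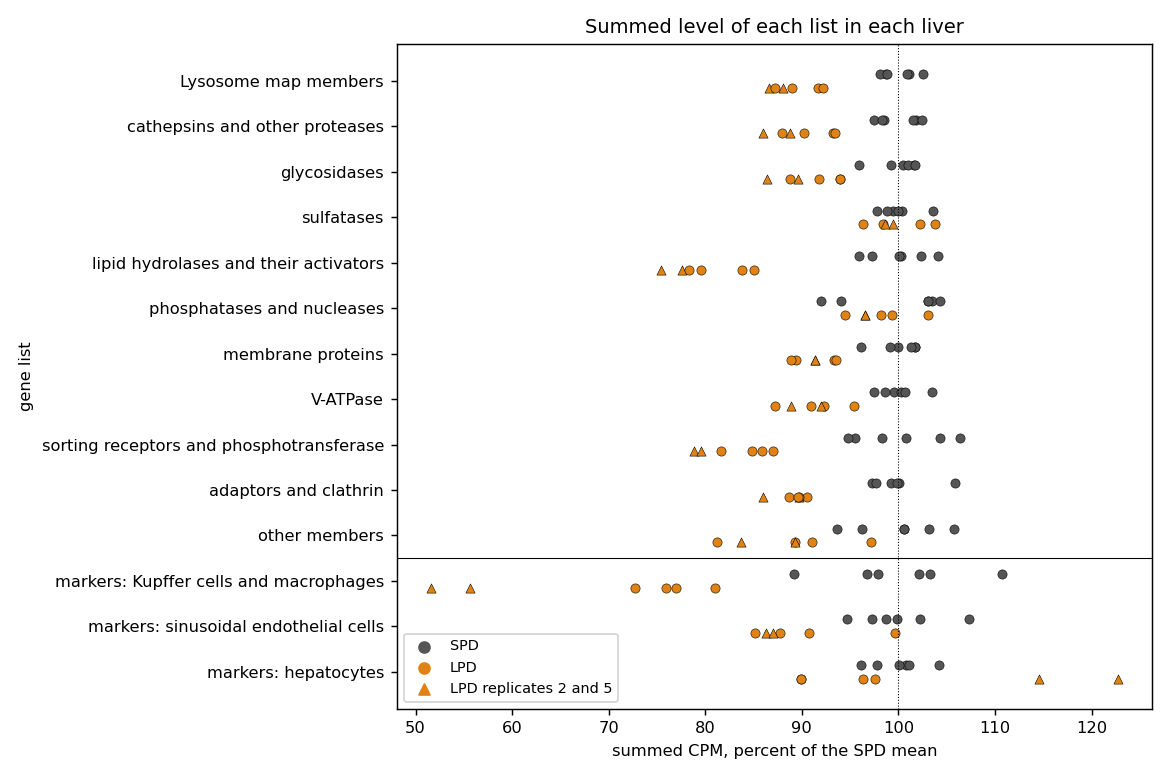
Summed CPM in each liver as a percent of the SPD mean (horizontal axis), one point per liver. Rows are all members, each role, and the macrophage, sinusoidal endothelial and hepatocyte marker lists. Triangles mark LPD replicates 2 and 5. LPD livers lie below SPD livers for the lipid hydrolases and their activators, overlap them for sulfatases, and spread widely for macrophage markers.

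Within a diet, livers were alike for most members. The median coefficient of variation (SD over mean) of the 119 members was 7.01% in SPD and 7.70% in LPD. It passed 30% for Ctsk and Napsa in SPD and for these and Atp6v0d2, Cd63, Ncoa7 and Sort1 in LPD. Among LPD livers, replicate 5 was lowest for 38 members and replicate 2 for 26 of the 119. Across the 22 alternative settings, 27 of the 47 lower and 6 of the 12 higher members kept their call in all of them. The share of all called genes that did so was not computed, so these counts do not set the members apart. Those with the smallest adjusted p, such as Gm2a and Ctsd, stayed under 0.05 throughout, with largest adjusted p of 0.000593 and 0.00105.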

How the data were processed

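Estimated counts per gene and library were deposited by the authors without scaling between libraries, and 17.1% to 18.9% of a library's values above 0 were fractional. The deposited table also gives a length per gene, used to compare levels between genes. The submitters' processing notes name TopHat and DESeq2 and, as the build, mm10. For counter, annotation and strand, settings were not given in the sources used here. Per the labels' protocols, RNA was extracted with TRIzol, treated with DNase I and made into libraries with a TruSeq RNA kit.

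Counts were rounded and tested in R 4.3.3 with edgeR 4.0.16 (TMM scaling, filterByExpr with a minimum count of 10 and total of 15, quasi-likelihood F test of LPD against SPD, two-sided, over 12 libraries). P-values were Benjamini-Hochberg adjusted over 13768 genes, with calls at an adjusted p under 0.05. SE was taken as the size of the log2 fold change over the square root of F. CPM used TMM-scaled totals. The script was tested on simulated data. All 133 members were matched to GENCODE M21 on GRCm38, and 52 share exon bases with another gene. Values are per gene, so exons and UTRs are not told apart.

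Members, roles, lists and tests were chosen with earlier results of these data known. Named are the up to 4 called members per role and direction with the smallest adjusted p, the member with the highest level per kb of each role, a fixed set of well-known members and regulators, and genes marked as chosen after their values were seen, to which Ctsz, Neu1, Man2b1, Manba and Entpd4 belong. Overlapping genes, examples of the outside lists, markers and members listed by name alone are named for the result they touch. The 22 alternatives covered scaling, filters, DESeq2 1.42.0, voom of limma 3.58.1, the replicate block, left-out libraries and the label of LPD replicate 1. Replicate numbers did not pair the livers, which came from separate mice. Values of a few members that the naming rule gives are not reported here.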

Additional observations from a re-analysis of the deposited data

Results flagged for a closer look

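In 132 groups of 6 livers tested for a liver far from the rest, 5 held one, where chance alone flags about 1 in 20 groups. LPD replicate 1 was the highest LPD liver for Ap1s1, at 39.9 CPM against 34.4 for the next liver and 31.7 for the lowest. It was also highest for Arsb, at 58.2 CPM against 51.5 and 48.6. SPD replicate 5 was the lowest SPD liver for Entpd4b, at 29.7 CPM against 35.5 for the next and 38.7 for the highest. SPD replicate 6 was the highest for Ncoa7, at 5.92 CPM against 4.92 for the next. For the summed adaptor and clathrin genes, SPD replicate 4 was highest at 1250 CPM, with the next liver at 1181.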

How the results depend on the processing

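Over the 22 alternatives, 30 to 50 members were lower and 8 to 12 higher. Of all genes tested, 10.2% to 20.4% were lower and 10.7% to 21.8% higher. Only the SP1 and LP4 libraries alone moved the count of lower members by over 1.5 times, with 30 lower and 8 higher members. There 25.2% of tested members were lower, against 12.2% of all genes, and 13.2% of all genes were higher. That setting also has fewer libraries. With each library left out in turn, 42 to 47 members were lower and 9 to 12 higher, with medians of -0.15 to -0.12. In those settings 17.2% to 19.1% of all genes tested were lower and 18.4% to 20.2% higher. With LPD replicate 1 counted as SPD, 39 members were lower (32.5%) and 9 higher, against 15.9% and 16.2% of all genes tested. The replicate number as a block gave 42 lower (35.3%) and 9 higher members with a median of -0.14. Of all genes tested, that block gave 18.6% lower and 19.4% higher. Same-numbered livers deviated from their group means with correlations of -0.0539 to 0.0968, and not every liver correlated best with its own number, so they share only a number. DESeq2 called 50 members lower (42.0%) and 12 higher, against 20.4% and 20.6% of all genes tested. No scaling moved the median of all genes by over 0.1. Atp6v0d2, which was not called, changed sign in 4 settings, and the cause was not tested. It gave -0.14 with LPD replicate 1 as SPD, and -0.048, -0.033 and -0.0096 without LPD replicates 1, 3 and 4; with each library left out it ranged from -0.048 to 0.18. Levels under 10 CPM limit precision for 17 of the tested members.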

Other observations

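Genes outside the map that encode other lysosomal proteins or inhibitors of cathepsins were examined as a list of 16, all tested. Among the 16, 7 fell (43.8%, against 19.2% of all genes tested) and 1 rose (6.25%, against 20.7%). Cstb, encoding cystatin B, an inhibitor of cathepsins, fell from 81.7 ± 7.61 to 43.7 ± 6.21 CPM with no overlap (-0.90 ± 0.09, adjusted p = 2.86e-06). Cst3, encoding the secreted inhibitor cystatin C, was not called (-0.11 ± 0.053, adjusted p = 0.106). Pcyox1, prenylcysteine oxidase, fell from 355 ± 10.3 to 266 ± 9.61 CPM (-0.41 ± 0.047, adjusted p = 8.33e-06), and Scpep1, Mfsd1, Ostm1, Slc36a1 and Ggh were lower, with log2 fold changes from -0.37 to -0.24. Tpcn1, a cation channel of endosomes and lysosomes, was the gene that rose, from 43.0 ± 5.61 to 58.9 ± 6.02 CPM (0.45 ± 0.086, adjusted p = 0.000703). Grn, encoding progranulin, was not called (0.077, adjusted p = 0.237). Gpnmb, a glycoprotein of lipid-laden macrophages, ran from 31.4 to 68.1 CPM in SPD and from 3.81 to 42.9 CPM in LPD (-1.02 ± 0.43, adjusted p = 0.0689).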
